A study of Elaeis guineensis with 58 samples.

Results

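GST is the one gene that carries the symbol of a glutathione S-transferase among the 27986 genes counted in the spear leaf (frond F0, the youngest unopened frond) of oil palm, Elaeis guineensis. It was taken by its symbol, and it was found in all 58 libraries, which came from 52 palms. The palms were ortets, the palms from which tissue is taken for cloning, and they came from 2 agencies. They were grouped by their past yield of embryoid lines into high (at least 90 lines), low (1 to 89 lines) and zero. Agency L1 supplied 15 low palms and 17 zero palms, all extracted with CTAB and read at 100 bases, with the genotype labels Dumpy Avros (12 palms) and Dumpy Yangambi Avros (20 palms). Agency L2 supplied 8 high, 6 low and 6 zero palms, extracted with the InnuPREP kit and read at 50 bases, and for 6 of these palms a CTAB extract was sequenced as well. By genotype label, L2 high held 6 Jen Avros palms, 1 Jen Avros Yangambi palm and 1 Yangambi_C palm. L2 low held 4 Yangambi_B palms with 1 palm each of Jen Avros and Yangambi_C, and L2 zero held Yangambi_A palms alone. No age or culture treatment of the ortets was given in the labels.

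Glutathione S-transferases join the tripeptide glutathione to reactive compounds, among them herbicides and products of lipid peroxidation, so that these can be moved out of the cytosol. Plants carry many of them, in several classes, and some members are known from tobacco and soybean as genes induced by auxin. Reads came from the 3' ends of transcripts. Whether reads from near-identical relatives of GST were counted at GST or lost as multi-mapped was not tested. In whole leaf tissue, fewer cells that hold GST transcripts and less of the transcript per cell cannot be told apart.

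GST was counted between 34 and 686 times in L1 libraries, between 259 and 1029 times in L2 CTAB libraries and between 622 and 5007 times in L2 InnuPREP libraries. The library totals over all genes lay between 3943437 and 9685451 for L1, between 4215872 and 7580573 for L2 CTAB and between 8773354 and 15004694 for L2 InnuPREP. Of the 11 plastid genes used as markers of green leaf tissue, 10 were counted in every library and ndhB was at 0 in all 58, and together they made up 0.204% to 3.66% of gene counts. No 2 libraries held identical counts. Levels below are CPM (counts relative to the library total, in the usual unit), scaled by the TMM method over all 58 libraries. With the lowest count of 34, in L1 low palm 10, the exact 95% Poisson interval of the unscaled level was 4.12 to 8.32 CPM, and such intervals cover counting error only.

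The level of GST differed widely between palms of each group and was lower in L1 palms than in L2 palms. It ran from 6.29 to 557 CPM over the 58 libraries, an 88.5-fold range. By genotype label within each agency's main extraction, the order of the mean levels was as follows. Yangambi_B stood at 298 ± 188 CPM (SD, n = 4), Yangambi_A at 245 ± 86.0 CPM (SD, n = 6) and Yangambi_C at 161 and 194 CPM, all in InnuPREP libraries. Jen Avros stood at 153 ± 92.4 CPM (SD, n = 7) and Jen Avros Yangambi at 125 CPM (1 palm), also in InnuPREP libraries. These 5 labels overlapped, since the lowest Yangambi_B palm, at 140 CPM, lay below the highest Jen Avros palm, at 267 CPM. L1 palms, all in CTAB libraries, had 55.9 ± 28.7 CPM (SD, n = 12) under the label Dumpy Avros and 43.8 ± 30.0 CPM (SD, n = 20) under Dumpy Yangambi Avros. The L2 CTAB libraries stood at 140 and 152 CPM for Yangambi_A, 89.0 and 152 CPM for Yangambi_B, 68.6 CPM for Jen Avros Yangambi and 28.6 CPM for Jen Avros, the last of these below both L1 means.

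**Figure D1:**
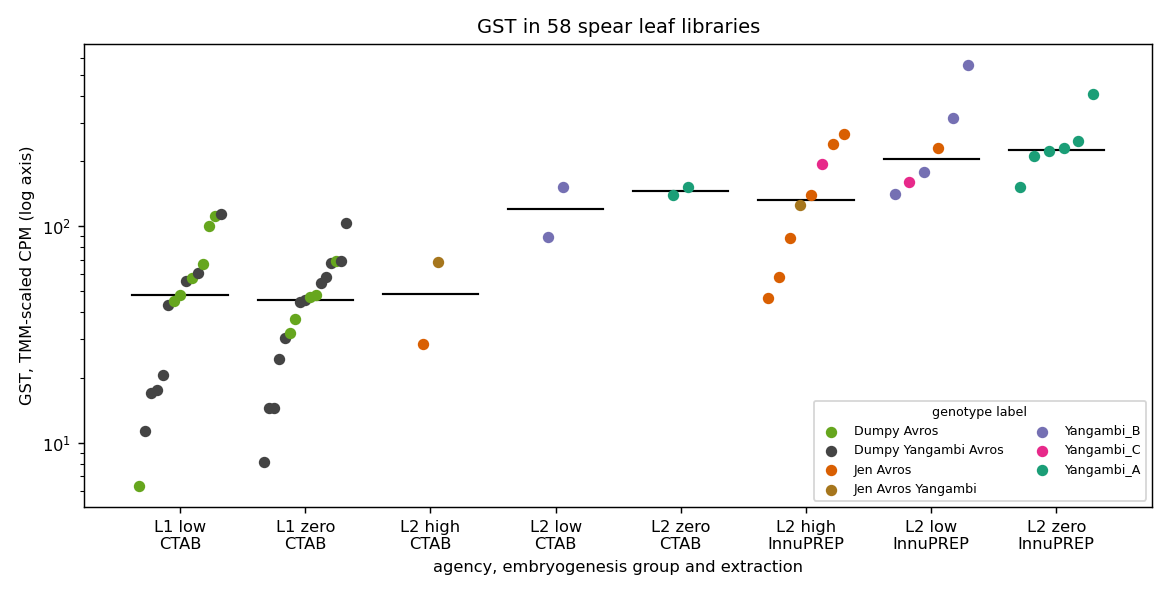
GST level (TMM-scaled CPM, log axis) in each of the 58 libraries, by agency, embryogenesis group and extraction; points are libraries, spread sideways in order of level and coloured by genotype label, and bars are group medians. L1 low and L1 zero palms cover the same range with medians of 47.9 and 45.6 CPM, while 5 of 8 L2 high palms lie below every L2 low and zero InnuPREP library. Of these, high palm 2 is all but tied with low palm 6 (139.9 and 140.4 CPM).

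The first comparison set L2 palms with high embryogenesis against the zero and low palms together, the reference named in the study's design. GST was lower on average in the high palms, and the call was a narrow one. High palms 1 to 8 had 241, 140, 46.9, 88.7, 267, 58.2, 194 and 125 CPM. Low palms 1 to 6 had 229, 178, 161, 557, 317 and 140 CPM, and zero palms 1 to 6 had 152, 248, 230, 408, 211 and 222 CPM. High palms 2, 3, 4, 6 and 8 lay below every zero and low palm, high palms 1, 5 and 7 lay within the range of the zero and low palms, and 3 of 12 zero and low palms lay above every high palm. High palm 2, at 139.9 CPM, was all but tied with low palm 6, at 140.4 CPM, a gap smaller than counting error.

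The high palms averaged 145 ± 82.2 CPM (SD, n = 8) and the zero and low palms 254 ± 121 CPM (SD, n = 12). The difference was a log2 fold change of -0.82 ± 0.32 (SE), which is 0.568-fold, with an adjusted p of 0.0474 by edgeR's quasi-likelihood test, where a gene was called below 0.05. In this comparison 40.5% of the 20008 genes tested were called and 20.3% were called lower, and GST ranked 7977 by p. The call was lost in 12 of 20 fits that left out 1 palm each (those lacking 1 of high palms 2, 3, 4, 6 and 8, of low palms 1, 4 and 5, or of zero palms 2, 3, 4 and 6), with edgeR adjusted p-values of 0.0212 to 0.0924 over the 20 fits. With genotype as a term the log2 fold change was -0.38 ± 0.59 (SE), with an edgeR adjusted p of 0.75. That estimate rested on the labels held by both sides, Jen Avros (6 high palms and 1 low palm) and Yangambi_C (1 of each). Without the 6 Yangambi_A palms, a choice made after the data had been seen, the log2 fold change was -0.88 ± 0.40 (SE) with an edgeR adjusted p of 0.122. Embryogenesis group and genotype thus cannot be told apart. The identifiers of high palms 1 to 7, and of no other L2 palm, begin with the letter U. With that letter as a term the group difference rested on high palm 8 alone, the only high palm without the letter. The log2 fold change was then -1.02 ± 0.80 (SE), and whatever the letter marks and the group cannot be told apart either. High palm 8 had 125 CPM, below every zero and low palm, which is the contrast that this fit estimated.

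Of the library measures, the share of reads outside genes was slightly lower in the high palms, and the others were alike. Reads outside genes made up 9.35 ± 0.507% in high palms and 10.1 ± 0.651% in zero and low palms (SD, n = 8 and 12), and multi-mapped reads made up 14.1% in each. Plastid genes took 3.05% of gene counts in high palms and 3.09% in zero and low palms. Across the 20 L2 palms and the 32 L1 palms, GST was set against the shares of multi-mapped reads, of reads outside genes and of plastid counts and against the total, with group means subtracted. None of these 16 permutation tests passed, with r or rho between -0.32 and 0.331 and adjusted p-values of 0.773 to 0.887. A fit with library terms held the multi-mapped share, the plastid share and the total, and its edgeR adjusted p was 0.0656 at a log2 fold change of -0.81. The share of reads outside genes, the measure that differed, was not among these terms, and its part in the group difference was not tested.

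Split by group in 1 fit, high palms differed from low palms by -0.87 ± 0.38 (log2 fold change, SE; edgeR adjusted p = 0.0861) and from zero palms by -0.76 ± 0.38 (edgeR adjusted p = 0.12). Neither was called, where 28.1% and 35.9% of 20413 genes were. The low palms averaged 264 ± 157 CPM and the zero palms 245 ± 86.0 CPM (SD, n = 6 each), a log2 fold change of 0.12 ± 0.40 (SE) with a 95% interval of -0.68 to 0.91 and an edgeR adjusted p of 0.94, in a comparison that called 0.176% of genes. Low palm 4, at 557 CPM, set the sign of that difference: without it the log2 fold change was -0.25.

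Within one genotype label the comparison of groups rested on few palms. Among Jen Avros palms the high ones had 46.9 to 267 CPM (140 ± 94.2, SD, n = 6), and 4 of these 6 lay below the single low palm, at 229 CPM. Under Yangambi_C the high palm stood at 194 CPM and the low palm at 161 CPM, the other way round. No label was shared by high and zero palms.

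GST was also read against the number of embryoid lines, within a group so that lines and group were not mixed. Among the high palms those with more lines mostly had lower levels, but the relation did not pass the correction for the 7 tests computed. Pearson and Spearman tests were counted apart, and those between extractions were among the 7. High palms 7, 1 and 5, with 91, 129 and 140 lines, had 194, 241 and 267 CPM. High palms 4, 8 and 6, with 179, 191 and 280 lines, had 88.7, 125 and 58.2 CPM, and high palms 2 and 3, with 434 and 534 lines, had 140 and 46.9 CPM. The 3 palms with the fewest lines were thus the 3 with the most GST.

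Pearson's r of log2 CPM with log2 lines was -0.727 over the 8 high palms (two-sided exact permutation p = 0.0441, adjusted 0.0802), and Spearman's rho was -0.738 (exact permutation p = 0.0458, adjusted 0.0802). Without high palms 2 and 3, which lay farthest from the median number of lines, r was -0.82 (n = 6, exact permutation p = 0.0403). Leaving out single palms gave r from -0.877 (without high palm 2, adjusted exact permutation p = 0.00926) to -0.562 (without high palm 3, adjusted 0.331). The edgeR fit over all genes, chosen after the data had been seen, gave a log2 change of -0.71 ± 0.25 (SE) per doubling of lines, with an adjusted p of 0.677. That fit called 0% of 17665 genes, with 1187 at an unadjusted p below 0.05, among which GST ranked 427.

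Among the 6 L2 low palms r was -0.172 (exact permutation p = 0.711, adjusted 0.83) and rho was -0.0286 (exact permutation p = 1). Without low palms 2 and 5, which lay farthest from the median number of lines, r was 0.228 (n = 4). Without low palm 4, at 557 CPM, r was -0.806 and rho was -0.8 (n = 5, adjusted exact permutation p = 0.0933 and 0.156), and without low palm 5 r was 0.247, so the value among low palms rested on single palms. Whether the relation differs between high and low palms was not tested. The L1 low palms fell into palms with 1 to 4 lines and palms with 17 to 48 lines, so no correlation over all of them was computed. The 4 palms with at least 10 lines, L1 low palms 1, 7, 9 and 10, had 114, 60.9, 17.5 and 6.29 CPM (mean 49.6 ± 48.8, SD), and the 11 with fewer lines had 11.3 to 111 CPM (mean 52.5 ± 31.9, SD). Mean log2 CPM differed by -0.53 (two-sided exact permutation p = 0.483, adjusted 0.676), and the sign turned without L1 low palm 10, to 0.21.

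**Figure D2:**
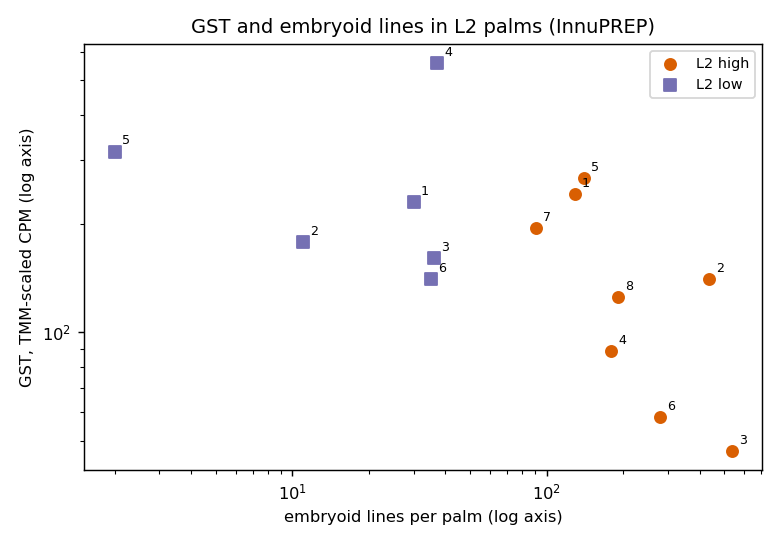
GST level (TMM-scaled CPM, log axis) against embryoid lines per palm (log axis) in the 8 L2 high palms (circles) and 6 L2 low palms (squares), InnuPREP libraries, numbered by palm. The high palms run down to the right, with r of -0.727. The low palms have r of -0.172, and of -0.806 without low palm 4, the highest point.

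In agency L1, GST did not separate low palms from zero palms. The low palms had 6.29 CPM at the lowest, 47.9 at the median and 114 at the highest, and the zero palms 8.17, 45.6 and 104 CPM. Their means were 51.7 ± 35.2 CPM (SD, n = 15) and 45.4 ± 24.4 CPM (SD, n = 17). The log2 fold change was 0.20 ± 0.34 (SE), with a 95% interval of -0.46 to 0.87 and an edgeR adjusted p of 0.931. This comparison called 0% of 18434 genes by edgeR, DESeq2 or limma-voom, though in the edgeR fit 1337 had an unadjusted p below 0.05.

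The log2 difference between low and zero palms in L2 minus that in L1 was -0.08 ± 0.60 (SE), with an edgeR adjusted p of 0.989 and 0.0485% of 20616 genes called. The agencies were thus not shown to differ in it. L1 palms labelled Dumpy Avros had 6.29 to 111 CPM and those labelled Dumpy Yangambi Avros 8.17 to 114 CPM. The log2 fold change was 0.35 ± 0.34 (SE), with a 95% interval of -0.32 to 1.02 and an edgeR adjusted p of 0.843. That comparison called 0% of 18689 genes by edgeR, although 1315 had an unadjusted p below 0.05, while DESeq2 called 18.

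GST was compared between extraction methods in the 6 L2 palms that had a library of each. In all 6 palms the CTAB library held less GST than the InnuPREP library. High palm 3 had 28.6 CPM by CTAB and 46.9 by InnuPREP, high palm 8 had 68.6 and 125 CPM, and low palm 6 had 89.0 and 140 CPM in the same order. Zero palm 6 had 140 CPM by CTAB and 222 by InnuPREP, zero palm 2 had 152 and 248 CPM, and low palm 5 had 152 and 317 CPM. The ratio of CTAB to InnuPREP lay between 0.48 and 0.634 in every palm. Library measures moved with the extraction in all 6 palms. Multi-mapped reads made up 24.9 ± 5.77% by CTAB and 13.5 ± 3.48% by InnuPREP, and reads outside genes 18.3 ± 1.75% by CTAB and 10.0 ± 0.551% by InnuPREP (SD, n = 6 each). Plastid genes took 6.24 ± 1.19% of gene counts by CTAB and 3.13 ± 0.80% by InnuPREP (SD, n = 6 each), and the 11 leaf markers together took 0.439% to 1.21% by CTAB and 0.264% to 0.666% by InnuPREP. Their part in the difference in GST was not tested.

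With the palm as a block, the log2 fold change of CTAB over InnuPREP was -0.78 ± 0.09 (SE), with an edgeR adjusted p of 6.67e-07, where 56.9% of 19172 genes were called and 29.9% were called lower. Scaled by library totals only, the log2 fold change was -0.51 (edgeR adjusted p = 3.63e-05), and genes called higher made up 71.8% of the calls in place of 47.4%. That scaling moved the median of all genes by 0.27, and relative to the median gene GST differed by -0.76 under it and by -0.75 under TMM.

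The order of the palms by GST was the same in both extractions. Spearman's rho between the CTAB and InnuPREP libraries was 1 and Pearson's r of log2 CPM was 0.988 (n = 6, two-sided exact permutation p = 0.00278 and 0.00139, both 0.00972 after adjustment over the 7 tests). Zero palm 2 and low palm 5 were all but tied in CTAB, at 152.03 and 152.06 CPM, so their order there is not settled. Scaled by library totals only, rho was 1 as well. Without low palm 5 and high palm 3, r was 0.988 (n = 4). The log2 difference between extractions varied between palms with an SD of 0.16, against an SD between palms of 0.94 among CTAB libraries and 0.99 among InnuPREP libraries. The level of GST thus separated these palms by far more than the difference between 2 extracts of a palm varied. The 2 high palms also had the lowest GST among the 6 CTAB libraries, at 28.6 and 68.6 CPM, against 89.0 to 152 CPM in the 4 zero and low palms.

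**Figure D3:**
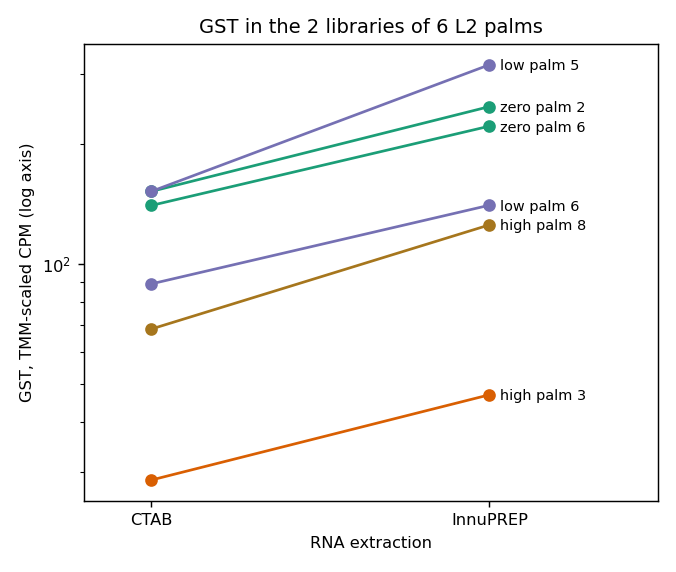
GST level (TMM-scaled CPM, log axis) in the CTAB and InnuPREP libraries of 6 L2 palms, each palm joined by a line and coloured by genotype label. All 6 lines rise toward InnuPREP and none crosses another, so the palms keep their order.

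Agencies were compared on CTAB libraries alone. L1 palms had 6.29 to 114 CPM (48.3 ± 29.6, SD, n = 32) and L2 CTAB libraries 28.6 to 152 CPM (105 ± 51.2, SD, n = 6). Of the L1 palms, 9 of 32 lay below the lowest L2 CTAB library and none lay above the highest, and 3 of 6 L2 CTAB libraries lay above every L1 palm. The log2 fold change of L1 over L2 was -1.11 ± 0.38 (SE), with an edgeR adjusted p of 0.02, where 36.2% of 20019 genes were called and 18% were called lower. Leaving out any of L2 low palm 5 and L2 zero palms 2 and 6 ended the call (edgeR adjusted p up to 0.0841). With totals only as the scale, genes called higher made up 36.5% of the calls in place of 50.4%, the median gene moved by -0.14, and GST differed from the median gene by -1.10 in place of -1.14. Agency, genotype label and read length cannot be told apart here. Leaf markers moved with agency as well: the 11 together took 0.515% to 3.66% of gene counts in L1 libraries and 0.439% to 1.21% in L2 CTAB libraries, with ndhB at 0 in all of them. The plastid share of gene counts averaged 11.4 ± 3.05% for L1 and 6.24 ± 1.19% for L2 CTAB (SD, n = 32 and 6), and the part of these measures in the difference in GST was not tested.

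GST was among the more variable genes between palms of one group. Its SD of log2 CPM within groups was 1.10 in L1 and 0.76 in L2 InnuPREP libraries, against medians of 0.53 and 0.409 over 16989 genes. In L1 the SD of GST was above that of 91.1% of these genes, and above 95.4% of the 3383 genes within 0.5 of its mean log2 level. In L2 it was above 88.9% of all and above 88.5% of the 765 genes of like level. The largest SD that counting error alone gives GST was 0.247 in an L1 library and 0.0578 in an L2 library. The 8 lowest L1 palms had 6.29 to 20.5 CPM, and 5 of them were low palms and 3 were zero palms.

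Genes that varied with GST were sought by Pearson's r of log2 CPM after group means were subtracted, over the 20 L2 palms and over the 32 L1 palms apart. These correlations are descriptions: palms of an agency share extraction, read length and library preparation. Of 16989 genes, 942 had an r of at least 0.6 in L2 and 684 in L1, and 80 had it in both, which is 8.49% of the L2 list and 11.7% of the L1 list. At -0.6 or below there were 954 genes in L2 and 336 in L1, with 30 in both, or 3.14% and 8.93% of these lists. The 80 of 942 L2 genes stand beside 684 of all 16989 genes in L1, and the 30 of 954 beside 336 of 16989. Whether the overlaps exceed those of unrelated lists was not tested.

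Ranked by the weaker of the 2 agencies, LOC105059363 was the gene most like GST, with r of 0.88 in L2 and 0.79 in L1, followed by LOC105033080 with 0.79 and 0.90. The most opposed were LOC105047013, with -0.69 in L2 and -0.75 in L1, and LOC105061350, with -0.71 and -0.69. The files give none of these 4 a name beyond the identifier. With the multi-mapped share, the plastid share and the total taken out, the r of LOC105059363 was 0.90 in L2 and 0.78 in L1. That of LOC105033080 was 0.79 and 0.90, that of LOC105047013 was -0.65 and -0.72, and that of LOC105061350 was -0.70 and -0.62.

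Of the 22 other nuclear genes with a symbol, 12 were abundant enough to compare. Of these, 3 were positive and 4 negative in both agencies. Like signs were common over all genes: by rank, at least 3652 of 16989 were positive in both agencies and at least 4916 negative in both. These are lower bounds, since the full counts are not given here. The counts are not read as a trait of the symbol genes. AHP1, which in Arabidopsis is the symbol of a histidine phosphotransfer protein of cytokinin signalling, had r of 0.64 in L2 and 0.63 in L1 and ranked 51 of 16989. DRM had 0.69 in L2 and 0.66 in L1 and ranked 28. With the same library measures taken out, DRM had 0.68 in L2 and 0.56 in L1, the latter below 0.6, and AHP1 had 0.60 and 0.73. HCS went both ways, at 0.79 in L2 and -0.37 in L1. No other symbol gene reached 0.6 in both agencies.

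**Figure D4:**
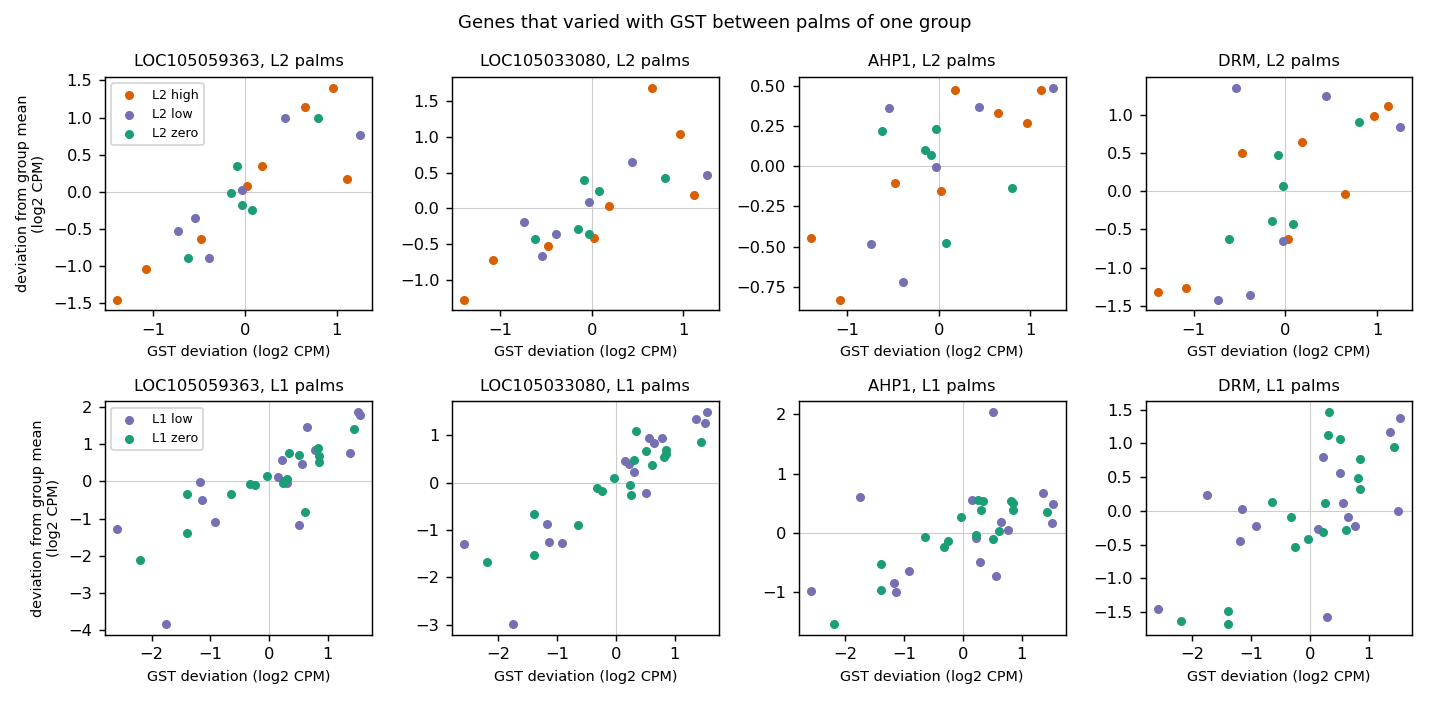
Deviation of 4 genes from their group mean (log2 CPM, y axis) against the deviation of GST (log2 CPM, x axis), in the 20 L2 InnuPREP palms (upper row) and the 32 L1 palms (lower row), with palms coloured by embryogenesis group. In each panel the palms run up to the right, most tightly for LOC105059363 in L2 (r of 0.88) and LOC105033080 in L1 (r of 0.90).

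DRM moved opposite to GST between L2 high palms and the zero and low palms, together or apart, but not in the comparisons given next. The log2 fold change of low over zero palms was 0.70 for DRM and 0.12 for GST in L2, and 0.45 and 0.20 in L1, none of them called. That of L1 over L2 CTAB libraries was -1.01 for DRM and -1.11 for GST, both called by edgeR. In L2 high palms DRM was higher, with 10.5 at the lowest, 12.1 at the median and 12.9 at the highest (log2 CPM), against medians of 10.9 in low palms and 10.3 in zero palms. Its log2 fold change between high palms and zero and low palms was 1.13 ± 0.41 (SE), with an edgeR adjusted p of 0.0305, while that of GST was -0.82. Against zero palms alone DRM had 1.53 (edgeR adjusted p = 0.0218) and GST -0.76. Against low palms alone DRM had 0.82 (edgeR adjusted p = 0.211) and GST -0.87. Against zero and low palms together, AHP1 had 0.45 ± 0.18 (edgeR adjusted p = 0.0552) and LOC105059363 had 0.86 ± 0.38 (edgeR adjusted p = 0.0723). LOC105033080 had 0.55 ± 0.33 (edgeR adjusted p = 0.189), and none of them was called. LOC105047013, the gene most opposed to GST within groups, fell there like GST, by -1.17 ± 0.32 (SE, edgeR adjusted p = 0.00708). Against zero palms alone, LOC105059363 (1.44, edgeR adjusted p = 0.0137) and LOC105033080 (0.99, edgeR adjusted p = 0.0469) were called higher, and AHP1 (0.41) was not called. In L1 over L2 CTAB libraries LOC105059363 had 0.73, LOC105033080 0.32 and AHP1 -0.11, none called, where GST had -1.11.

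Between extractions these 4 genes were lower in CTAB libraries, as GST was. CTAB over InnuPREP gave log2 fold changes of -0.88 for DRM, -0.80 for AHP1, -0.66 for LOC105059363 and -1.09 for LOC105033080, all called by edgeR, in the comparison that called 56.9% of genes. LOC105061350 rose by 0.74 and LOC105047013 fell by 0.46, both called as well.

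The order of genes in the EG11 gene table was used to look at the neighbours of GST, a choice made after values had been seen. Of the 10 nearest genes that the files also hold, 6 were abundant enough to compare and 4 of these had a positive r in both agencies. Over all genes, at least 3652 of 16989 were positive in both, a lower bound only, since the full count is not given here. Whether the neighbours exceed the share over all genes was not tested, and their count is not read as a trait. The gene next to GST on one side, LOC105032149, had r of 0.62 in L2 and 0.69 in L1 and ranked 64 of 16989. The gene next to it on the other side, LOC105032151, had 0.32 and 0.57.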

How the data were processed

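The files held read counts per gene, whole numbers deposited by the authors with no normalization, 1 table per library; per the labels' protocols, libraries were made with a 3' end (QuantSeq forward) kit. The tools were STAR 2.7.2b, HTSeq 0.11.2 and bcl2fastq, per the submitters' processing notes; their settings, the strand setting and the genome build are not given in the sources used here. The 5 HTSeq summary lines entered neither totals nor tests; multi-mapped reads were 3.4% to 38.7% and reads outside genes 8.74% to 21.5% of all reads of a table. Replicates were separate palms. Of 27986 identifiers, 25047 were found in the EG11 gene table, which was used only for names and gene order.

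Comparisons were fitted over all genes with edgeR 4.0.16 in R 4.3.3 (TMM, filterByExpr, robust quasi-likelihood fit), Benjamini-Hochberg adjustment and a threshold of 0.05, and GST was read from them. Standard errors were the absolute log2 fold change divided by the square root of F. Log2 CPM used a prior count of 2. Correlations and group tests of GST alone were two-sided permutation tests in scipy 1.17.1 and numpy 2.4.6, exact except for the library measures (100000 resamples). The fit was tested on simulated data. CTAB and InnuPREP libraries were paired by the palm label: deviations from method means correlated at 0.71 to 0.836 within palms and at most at 0.264 between palms, over 19172 genes.

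Genes varying with GST were named by rule: at least 1 mean log2 CPM in both agencies, ranked by the weaker r, at most 2 identifiers of each sign, and other symbol genes. Lists of relatives of GST and of glutathione pathway genes were not applied, since no protein sequences or product names were used here. GST and the lists were chosen with earlier results of these data known. Alternatives were other scalings, filters, DESeq2 1.42.0, limma-voom (limma 3.58.1), covariates and leaving out single palms.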

Additional observations from a re-analysis of the deposited data

How the results depend on the processing

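Of 71 alternatives to 17 results, leaving out single palms apart, 60 kept the direction and the side of the threshold. For L2 high against zero-low, the call was lost with library terms (log2 fold change -0.81) and with a genotype term (-0.38). It was also lost with a term for identifiers that begin with U (-1.02, edgeR adjusted p = 0.911, 0 genes called) and without Yangambi_A palms (-0.88). With the CTAB library in place of the InnuPREP library for 6 palms, GST was not called (-0.72, edgeR adjusted p = 0.163). That fit mixed CTAB and InnuPREP libraries without a term for extraction. A fit with log2 lines in place of the groups gave a slope of -0.11 per doubling (edgeR adjusted p = 0.109), which is not a group difference. The main fit called 8113 genes, but 1218 were called with the genotype term and 4670 without Yangambi_A palms. For high against zero, limma-voom called GST at -0.81 (adjusted p = 0.0475). The sign turned for L2 low against zero with library terms (-0.030). It also turned for low minus zero between agencies with totals only (0.015, where genes called higher were 57.1% of 7 in place of 40% of 10, and the median gene moved by 0.11). In L1, log2 lines in place of the groups gave a slope of -0.0049 ± 0.11 (SE) per doubling, which is not the low minus zero difference. Without the palm block, CTAB against InnuPREP gave -0.79 with an edgeR adjusted p of 0.266, and 2875 genes called in place of 10905. The causes were not tested. Called genes for L2 low against zero were 36, but 333 by DESeq2, 1260 by limma-voom, 16 without a filter and 14 by totals only. Between L1 genotype labels they were 0, but 18 by DESeq2 and 5 without a filter. For low minus zero between agencies they were 10, but 63 by DESeq2.

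Leaving out single palms gave log2 fold changes of -0.99 to -0.65 for L2 high against zero-low, -0.94 to -0.56 for high against zero, -1.06 to -0.51 for high against low (called without high palm 5), -0.25 to 0.32 for low against zero, 0.06 to 0.31 for L1 low against zero, -0.80 to -0.72 for CTAB against InnuPREP and -1.28 to -0.95 for L1 against L2 CTAB libraries. The correlation with lines ran from -0.877 to -0.562 (rho -0.821 to -0.607) in L2 high palms and from -0.806 to 0.247 (rho -0.8 to 0.2) in L2 low palms. That between extractions ran from 0.953 to 0.996, with rho of 1 throughout, and the L1 difference by lines from -1.17 to 0.21. Depth limits GST most in L1, where its lowest count was 34. Few palms per genotype label limit comparisons within a label.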
